A study of Mus musculus with 8 samples.

Results

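The genes described here encode the classical axon guidance cues and their receptors: semaphorins, plexins, neuropilins, ephrins, Eph receptors, Slits, Robos, netrins and Unc5 receptors. They were taken by symbol from a table of gene expression in mouse cornea. Every row was taken whose name begins with Efna, Efnb, Plxn, Epha, Ephb or Unc5, or with Sema, Slit, Ntn or Robo followed by a digit. Nrp1 and Nrp2 were added. The rule used no measured value, but was set with earlier results of these data known. It found 53 of the 13437 genes in the table, of which 27 encode ligands and 25 encode receptors. The remaining gene, Unc50, is caught by its name only; its product is a Golgi protein with no guidance role.

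Corneas came from female C57BL/6 mice, 6 to 8 weeks old, in a model of dry eye disease. In the BAC group both eyes received 5 µl of 0.2% BAC 2 times daily for 7 days, and in the PBS group both eyes received PBS; the labels do not spell out the abbreviation BAC. RNA sequencing gave 4 samples per group, which carry no transgene or deletion. How many mice or eyes went into 1 sample is not given, so the p-values measure the spread between these samples, which may be technical. Levels are FPKM, a fragment count scaled to transcript length and library size, so they can be compared between genes, and the depth behind them is unknown. Coordinates are those of the deposited table, on GRCm38, and span the whole gene.

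Guidance cues steer growing axons, and the same molecules shape vessels, epithelia and immune cell traffic. Semaphorins bind plexins, with the neuropilins as co-receptors for the secreted class 3 semaphorins. Ephrins are bound to the cell surface and signal to Eph receptor tyrosine kinases on neighbouring cells, Slits signal through Robo receptors, and netrins through DCC-family and Unc5 receptors. The cornea is among the most densely innervated tissues and is normally free of vessels, and several of these families are known there from work on corneal nerves, epithelial wound closure and vessel ingrowth.

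The groups differed widely in which cell types their RNA represents. The summed level of 6 corneal epithelial markers was 4238 to 5485 FPKM in BAC corneas, against 21438 to 23283 FPKM in PBS corneas, with Krt12, the keratin of the mature corneal epithelium, at 8.50 to 14.96 FPKM in BAC corneas and 10032 to 10586 FPKM in PBS corneas. Of these 6 markers, 5 were lower and 1, the basal keratin Krt14, was higher. Of 8 markers chosen for blood and lymphatic endothelium, 7 had values and Prox1 was not listed. The sum of the 7 was 107 to 141 FPKM in BAC corneas, against 5.61 to 13.2 FPKM in PBS corneas. All 7 were called higher, but for Lyve1 the groups overlapped, with 0.796 FPKM in BAC 2 and 0.914 FPKM in PBS 1. Of 8 leukocyte rows, 5 were higher, 2 were not called, both of Itgam, and 1 was too low to test. Their sum was 581 to 761 FPKM in BAC corneas, against 44.4 to 52.2 FPKM in PBS corneas, and Cd79a was not listed. Leukocyte markers Csf3r and Cd3e were each listed at 0 in 2 PBS samples, and no endothelial marker was at 0 in any sample. In bulk RNA, fewer cells of a type and less RNA per cell cannot be told apart.

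Other markers set single libraries apart. Iris pigment markers summed to 104.8 FPKM in BAC 4, with 8.78 FPKM in the lowest BAC sample, and to 49.3 FPKM in PBS 4, with 2.70 FPKM in the lowest PBS sample. Lens markers summed to 53.9 FPKM in PBS 1 and to at most 4.71 FPKM in any BAC sample. Schwann cell and nerve markers summed to 37.4 to 44.7 FPKM in BAC corneas, against 19.6 to 24.2 FPKM in PBS corneas, and 3 of 7 were higher. Sums of stromal, corneal endothelial and conjunctival markers were also above those of PBS corneas in every BAC sample, but members of the first 2 lists were divided. Of 5 stromal markers, 3 were higher, Dcn was not called, and Kera, a proteoglycan of corneal keratocytes, was 3.55 times lower (limma adjusted p = 0.000582). Of 4 corneal endothelial markers, 2 were higher and 2 not called, among them Slc4a11 with 4.58 FPKM in BAC corneas and 14.5 FPKM in PBS corneas. All 3 conjunctival markers with values were higher, and Muc5ac was not listed. The part these shifts play in the guidance genes was not tested.

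**Figure D1:**
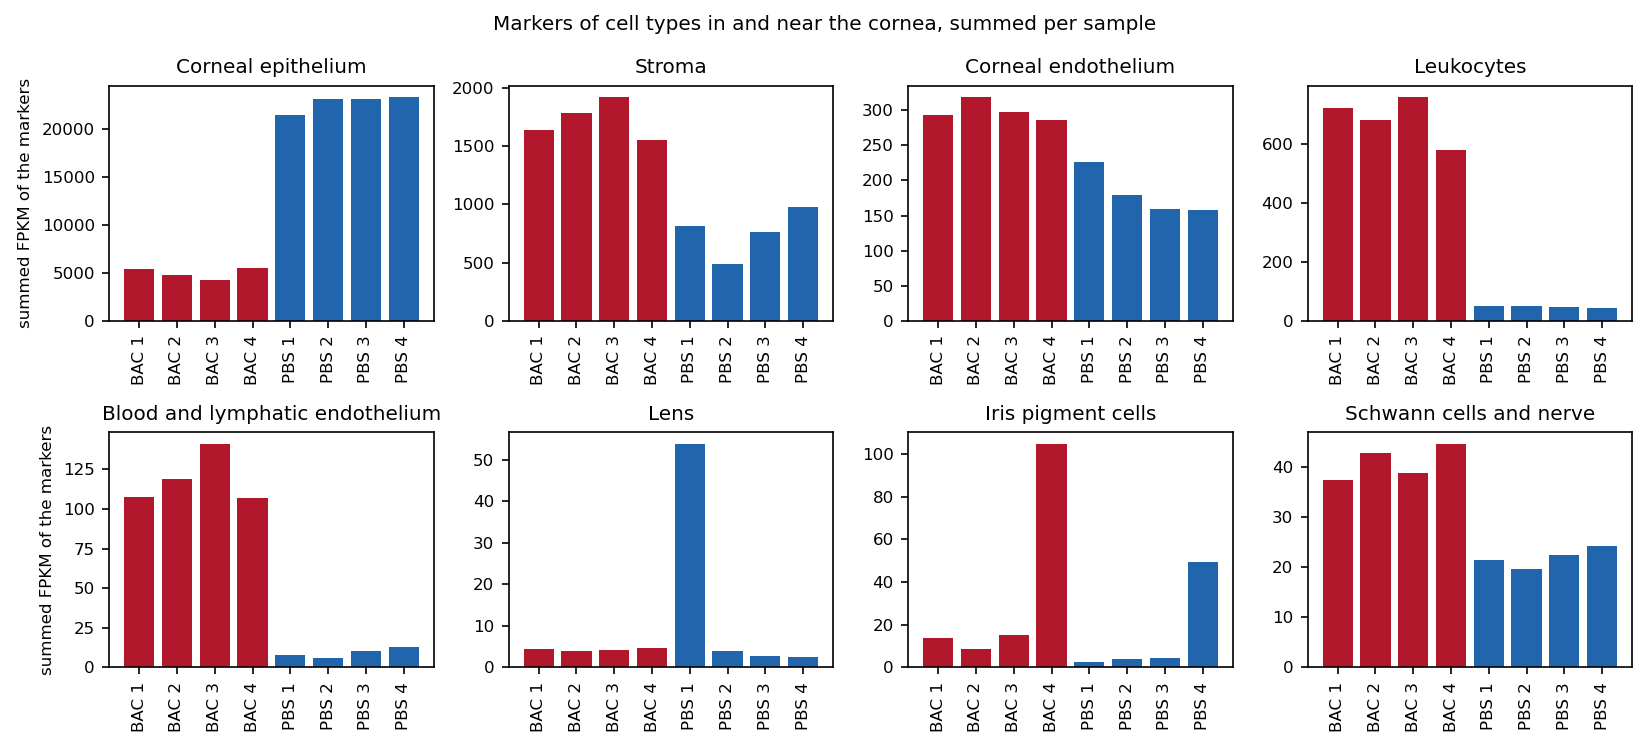
Summed FPKM of marker lists for the cell types a corneal sample can hold, per sample, with BAC samples left of PBS samples. Epithelial sums lie lower in all 4 BAC samples and leukocyte and vessel sums higher, while PBS 1 has the lens sum of 53.9 and BAC 4 and PBS 4 the pigment sums of 104.8 and 49.3.

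Genes were tested with limma on log2(FPKM + 1), with Benjamini-Hochberg adjustment over all 12967 genes that averaged at least 0.5 FPKM, and called at an adjusted p of 0.05. Much of the transcriptome passed: 67.6% of genes were called, 45.1% higher with BAC and 22.6% lower. Of the 53 genes found by the rule, 51 were tested, and 21 were higher with BAC, 17 lower and 13 not called. These counts include Unc50, which was not called. That is 74.5% called, near the share over all genes; 41.2% were higher and 33.3% lower. The median change of the tested members was 0.19 on the log2 scale, and that of all genes was also 0.19. Changes are log2 differences of FPKM + 1 and are not shifted by that median; for genes at low levels they come out smaller than the ratio of means.

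Of the 21 higher members, 10 averaged under 0.5 FPKM in PBS corneas and so were tested only because of their level in BAC corneas: Sema3g, Sema6a, Sema6b, Sema7a, Plxna4, Plxnc1, Efna2, Epha3, Epha7 and Robo4. Likewise 1 of the 17 lower members, Ephb1, was tested only because of its level in PBS corneas. With genes required to average 2 FPKM over all samples, 39 members were tested, of which 10 were higher (25.6%) and 16 lower (41.0%), where 43.2% of all genes were higher and 24.4% lower. A log2 change of at least 1 was reached by 21 of the 51 tested members, 15 higher and 6 lower. Of the 10 higher members tested only because of their level in BAC corneas, all but Plxna4 were among these 15. Over all genes, 22.8% were called with such a change, 2134 higher and 822 lower of 12967. With the filter at 2 FPKM, 6 higher and 6 lower of 39 members reached it, and 1598 higher and 737 lower of 10563 genes. After median-of-ratios scaling, 19 members were higher and 22 lower, where 34.4% of all genes were higher and 32.6% lower; after quantile normalization the members' counts were 17 higher and 22 lower, where 30.3% of all genes were higher and 38.5% lower. These scalings moved the median of all genes to 0.0097 and -0.084, against 0.19 unscaled. In 38 of the 51 tested members the BAC and PBS values did not overlap. Over all genes 63.5% had no overlap, 42.6% with BAC above PBS.

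**Figure D2:**
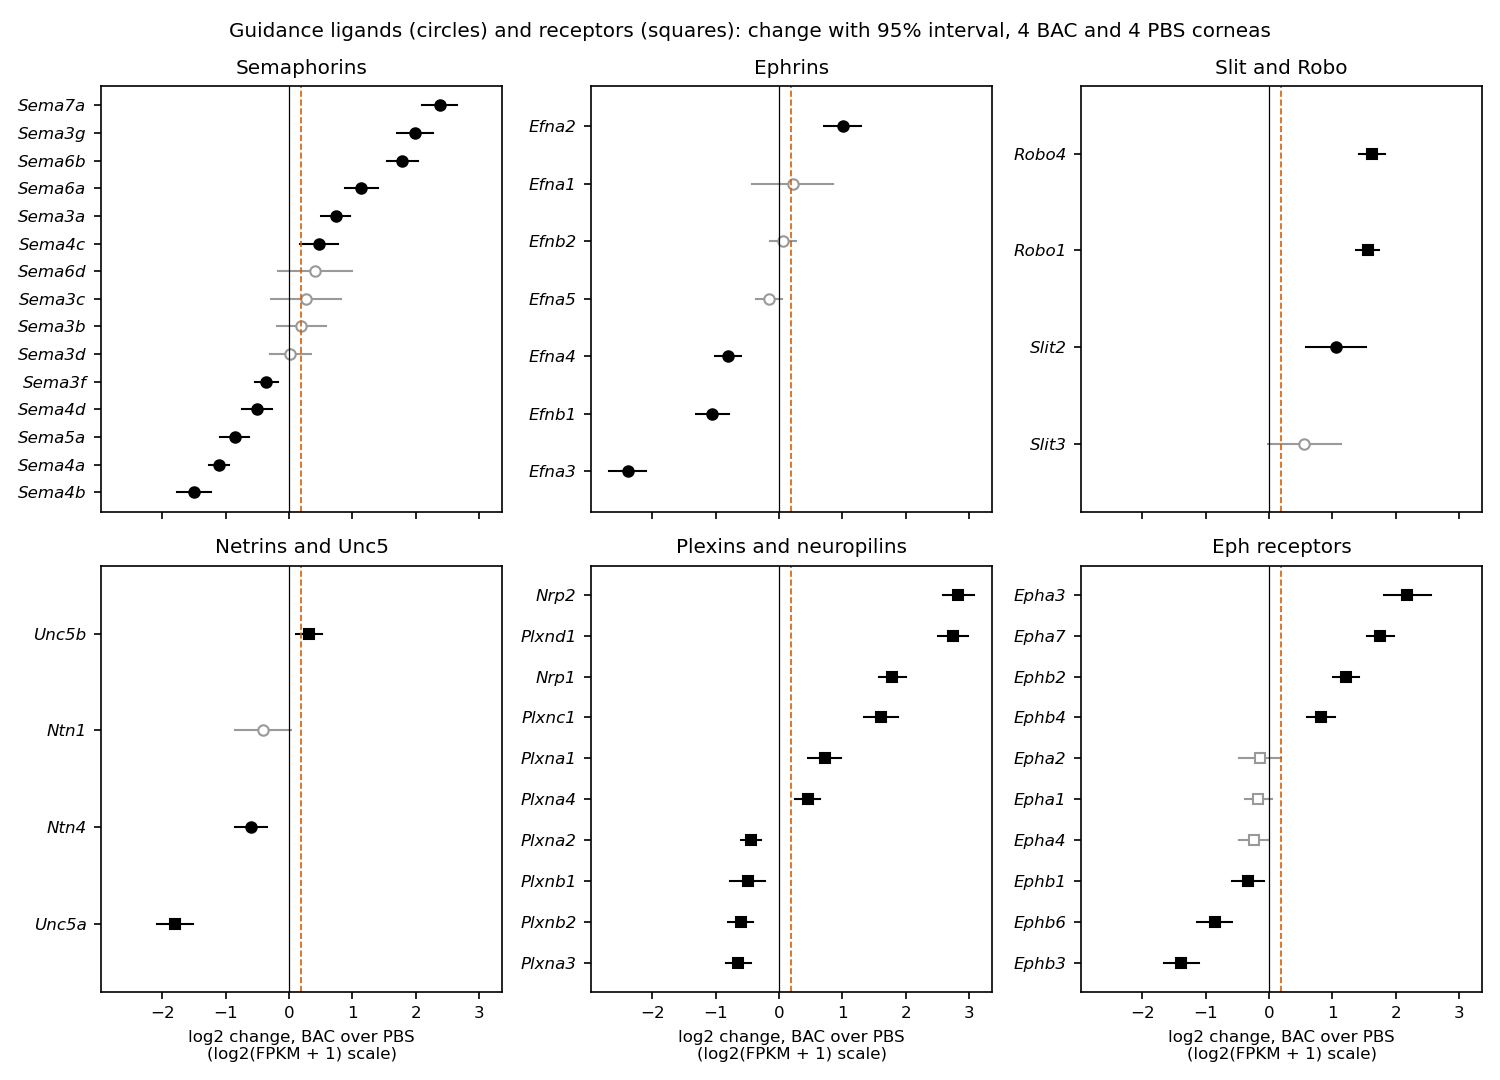
Log2 change in FPKM + 1, BAC minus PBS, with its 95% interval for each tested member, grouped by family; filled points passed the adjusted p of 0.05, open points did not, and the dashed line is the median of all genes, 0.19. Changes run down to -2.39 for Efna3 and up to 2.83 for Nrp2, and each large family has members on both sides of 0.

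Promoter sequences are shown for 5 genes whose values carry the results below: the clustered ephrin genes Efna1, Efna3 and Efna4, of which 1 was not called and 2 were lower, and the ligand and receptor pair Sema7a and Plxnc1, both higher. Each is the 250 bases before the RefSeq start, written 5′ to 3′ on the gene's strand in GRCm38.p6, with capitals marking the GC box GGGCGG or its reverse complement. Windows are chr3:89279646-89279895 for Efna1, chr3:89322940-89323189 for Efna3 and chr3:89338029-89338278 for Efna4, all on the minus strand. The Sema7a window is chr9:57939862-57940111 on the plus strand and that of Plxnc1 is chr10:94944846-94945095 on the minus strand.
Efna1: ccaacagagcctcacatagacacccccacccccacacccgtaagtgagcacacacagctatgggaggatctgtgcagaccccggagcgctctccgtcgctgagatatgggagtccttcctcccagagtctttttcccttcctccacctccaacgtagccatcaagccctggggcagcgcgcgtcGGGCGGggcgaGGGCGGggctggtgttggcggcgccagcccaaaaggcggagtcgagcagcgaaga
Efna3: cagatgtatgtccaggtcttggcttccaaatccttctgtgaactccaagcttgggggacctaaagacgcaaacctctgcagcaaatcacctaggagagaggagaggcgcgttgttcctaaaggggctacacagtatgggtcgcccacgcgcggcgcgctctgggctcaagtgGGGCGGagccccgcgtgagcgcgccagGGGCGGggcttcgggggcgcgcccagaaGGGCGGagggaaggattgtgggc
Efna4: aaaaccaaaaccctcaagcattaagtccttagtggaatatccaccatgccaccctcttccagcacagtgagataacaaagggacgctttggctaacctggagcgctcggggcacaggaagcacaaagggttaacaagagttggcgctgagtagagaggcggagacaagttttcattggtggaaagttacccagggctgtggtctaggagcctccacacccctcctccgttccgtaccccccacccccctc
Sema7a: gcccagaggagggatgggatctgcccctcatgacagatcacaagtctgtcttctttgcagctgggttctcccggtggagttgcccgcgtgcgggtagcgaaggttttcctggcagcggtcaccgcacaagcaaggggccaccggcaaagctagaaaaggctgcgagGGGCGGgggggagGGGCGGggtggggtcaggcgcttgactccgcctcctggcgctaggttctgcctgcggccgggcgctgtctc
Plxnc1: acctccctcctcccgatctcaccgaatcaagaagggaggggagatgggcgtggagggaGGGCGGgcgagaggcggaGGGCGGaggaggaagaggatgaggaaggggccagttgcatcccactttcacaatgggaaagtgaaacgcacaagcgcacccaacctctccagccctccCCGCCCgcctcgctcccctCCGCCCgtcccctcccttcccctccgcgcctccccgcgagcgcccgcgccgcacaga

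The GC box was found 2 times before Efna1, 3 times before Efna3, 2 times before Sema7a and 4 times before Plxnc1; Efna4 had none. GC content was 64.4% before Efna1, 63.6% before Efna3, 54.4% before Efna4, 66.4% before Sema7a and 68.8% before Plxnc1, with a median of 52.4% over all RefSeq windows. On both strands none of the 5 windows held the AP-1 motif TGANTCA, the E-box CACGTG, the core promoter box TATAAA or the ETS motif CCGGAA, or the NF-kappa B consensus, and no 2 different motifs overlapped. RefSeq gave 63 windows for 47 of the 53 genes. A GC box was in 73.0% of them, against 55.9% of the windows of all genes in the table and 32.7% of all windows. AP-1 was in 4.76% of member windows and 4.96% of those of all genes in the table, E-box in 4.76% and 7.94%, the core promoter box in 3.17% and 6.89%, ETS in 12.7% and 20.7%, and NF-kappa B in 7.94% and 8.93%. These matches describe letters in the window and show no binding.

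Semaphorins were read by class. Of 15 tested, 6 were higher with BAC, 5 lower and 4 not called, and their summed level was 96.8 FPKM in BAC corneas and 117 FPKM in PBS corneas. Counts of this and the following families stand beside 67.6% of all genes called, 45.1% higher and 22.6% lower. All 4 tested class 4 members, which are membrane-bound, were called: 3 were lower and 1 higher. Of 4 class 6 members, also membrane-bound, 2 were higher, 1 was not called and Sema6c was too low to test, and of 6 tested class 3 members, which are secreted, 2 were higher, 1 lower and 3 not called.

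Sema7a (chr9:57940112-57962865, plus strand), a semaphorin anchored to the membrane by a lipid and known in immune cells and in corneal nerve regrowth, had 5.51, 5.57, 7.14 and 5.75 FPKM in BAC corneas, against 0.180, 0.213, 0.382 and 0.631 FPKM in PBS corneas. The lowest BAC sample lay far above the highest PBS sample. Its mean was 17.1 times higher with BAC, and the log2 change was 2.38 (SE 0.12, limma adjusted p = 2.88e-07). Sema3g (chr14:31217860-31230352, plus strand), a secreted ligand of vessels, had 3.53, 3.80, 3.26 and 4.77 FPKM in BAC corneas, against 0.0575, 0.128, 0.420 and 0.266 FPKM in PBS corneas. No sample of either group came near the other, and the mean was 17.6 times higher (log2 change 1.99, SE 0.13, limma adjusted p = 8.71e-07).

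Sema6b (chr17:56123085-56140343, minus strand), which acts through A-type plexins, had 2.24, 2.104, 2.81 and 3.18 FPKM in BAC corneas and was listed at 0 in 3 PBS corneas, with 0.122 FPKM in PBS 3. Every BAC sample was higher than every PBS sample (log2 change 1.79, SE 0.11, limma adjusted p = 7.16e-07). Its relative Sema6a, another ligand of A-type plexins, averaged 1.86 FPKM in BAC corneas and 0.288 FPKM in PBS corneas, 6.45 times higher with BAC (log2 change 1.14). Sema3a, the prototype axon repellent, averaged 2.05 ± 0.135 FPKM in BAC corneas and 0.836 ± 0.227 FPKM in PBS corneas (SD, n = 4 each). It was 2.45 times higher without overlap between groups, but was not called after quantile normalization (log2 change 0.20, limma adjusted p = 0.0594).

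The other class 4 members and the class 5 member were lower with BAC. Sema4b (chr7:80186841-80226527, plus strand) had 6.29, 6.47, 5.49 and 5.27 FPKM in BAC corneas, against 14.6, 19.3, 18.4 and 21.9 FPKM in PBS corneas. The groups did not overlap, and Sema4b was 3.16 times lower with BAC (log2 change -1.50, SE 0.12, limma adjusted p = 3.82e-06). Sema4a, a semaphorin of dendritic and T cells, had 8.03, 7.34, 8.34 and 7.04 FPKM in BAC corneas, against 16.9, 18.6, 17.5 and 18.1 FPKM in PBS corneas. It was 2.31 times lower with little spread inside either group (log2 change -1.11). Sema4d (chr13:51701246-51793747, minus strand), the ligand of Plxnb1 and the most abundant semaphorin here, had 22.0, 25.5, 24.6 and 19.1 FPKM in BAC corneas, against 30.0, 36.0, 34.9 and 30.2 FPKM in PBS corneas. All BAC values were under all PBS values, a 1.44-fold lower mean (log2 change -0.51, SE 0.10, limma adjusted p = 0.00176). Sema5a was 2.15 times lower (log2 change -0.86) and Sema3f, a secreted ligand of Nrp2, averaged 16.1 FPKM in BAC corneas and 20.8 FPKM in PBS corneas (log2 change -0.36).

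Sema4c, a ligand of Plxnb2, was the class 4 exception, with 6.77 ± 1.53 FPKM in BAC corneas and 4.50 ± 0.187 FPKM in PBS corneas (SD, n = 4 each; log2 change 0.48, limma adjusted p = 0.0101). It was not called after median-of-ratios scaling (limma adjusted p = 0.0764) or quantile normalization (limma adjusted p = 0.219). Sema3b, Sema3c, Sema3d and Sema6d were not called with all samples. Their log2 changes were 0.19 (95% interval -0.20 to 0.58), 0.26 (-0.29 to 0.82), 0.02 (-0.31 to 0.34) and 0.40 (-0.18 to 0.99). Sema6d, a class 6 member, had 3.82, 3.95 and 4.38 FPKM in BAC 1, BAC 2 and BAC 3 but 1.35 FPKM in BAC 4, against 1.79 to 3.11 FPKM in PBS corneas. Without BAC 4 its log2 change was 0.68 (limma adjusted p = 0.00338). Sema3c stood at 9.42 FPKM in PBS 4 and 3.99 to 5.42 FPKM in the other PBS samples; without PBS 4 it was called higher (log2 change 0.49, limma adjusted p = 0.0435).

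Plexins and neuropilins, the receptors for these ligands, were all called: 6 of 10 were higher with BAC and 4 lower, though after quantile normalization Plxna4 turned and was not called. Over all genes 67.6% were called, 45.1% higher and 22.6% lower. Higher members were the neuropilins and the C and D plexins with Plxna1 and Plxna4, and lower members were both B plexins with Plxna2 and Plxna3. Nrp2 (chr1:62703285-62818695, plus strand), which marks lymphatic endothelium and binds class 3 semaphorins and VEGF-C, had 14.3, 13.1, 14.99 and 13.3 FPKM in BAC corneas, against 1.36, 0.706, 1.23 and 1.12 FPKM in PBS corneas. The BAC values were tightly grouped and far above every PBS value. The mean was 12.6 times higher (log2 change 2.83, SE 0.11, limma adjusted p = 5.1e-08).

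Plxnd1 (chr6:115954811-115995005, minus strand), the endothelial plexin, had 12.6, 12.7, 13.0 and 11.04 FPKM in BAC corneas, against 0.841, 0.728, 1.304 and 1.15 FPKM in PBS corneas. Its pattern was close to that of Nrp2 in level and in size of change, 12.3 times higher without overlap (log2 change 2.74, SE 0.10, limma adjusted p = 5.43e-08). Nrp1 (chr8:128358604-128503363, plus strand), the co-receptor for Sema3a and VEGF-A, had 6.25, 6.93, 7.89 and 6.97 FPKM in BAC corneas, against 1.3, 1.05, 1.39 and 1.54 FPKM in PBS corneas. It was 5.31 times higher (log2 change 1.79, SE 0.09, limma adjusted p = 2.89e-07). Plxnc1 (chr10:94790866-94944835, minus strand), the receptor of Sema7a and a plexin of myeloid cells, had 2.51, 3.26, 1.89 and 2.13 FPKM in BAC corneas, against 0.116, 0.108, 0.120 and 0.126 FPKM in PBS corneas. PBS values were nearly equal to each other, and the mean was 20.8 times higher with BAC (log2 change 1.61, SE 0.12, limma adjusted p = 2.2e-06). These genes moved with the endothelial and leukocyte marker sums given above, and the part of those cells in the changes was not tested.

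Plxnb2 (chr15:89155549-89171120, minus strand), the most abundant plexin and a receptor of epithelial cells, had 60.1, 65.7, 54.8 and 56.8 FPKM in BAC corneas, against 82.9, 102, 95.1 and 84.3 FPKM in PBS corneas. It was 1.53 times lower without overlap (log2 change -0.61, SE 0.09, limma adjusted p = 0.000176). Plxnb1, the receptor of Sema4d, averaged 19.1 ± 3.09 FPKM in BAC corneas and 27.2 ± 3.15 FPKM in PBS corneas (SD, n = 4 each; log2 change -0.49). Lower members moved with the epithelial marker sum, whose part in them was not tested. The A plexins went both ways. Plxna1 was 1.72 times higher with BAC and Plxna3 was 1.92 times lower. Plxna2 averaged 1.97 FPKM in BAC corneas and 3.03 FPKM in PBS corneas (log2 change -0.44). Plxna4 was low, with 0.803 FPKM in BAC corneas and 0.317 FPKM in PBS corneas (log2 change 0.45); it fell below the filter without BAC 4, and its change was -0.14 after quantile normalization, not called.

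**Figure D3:**
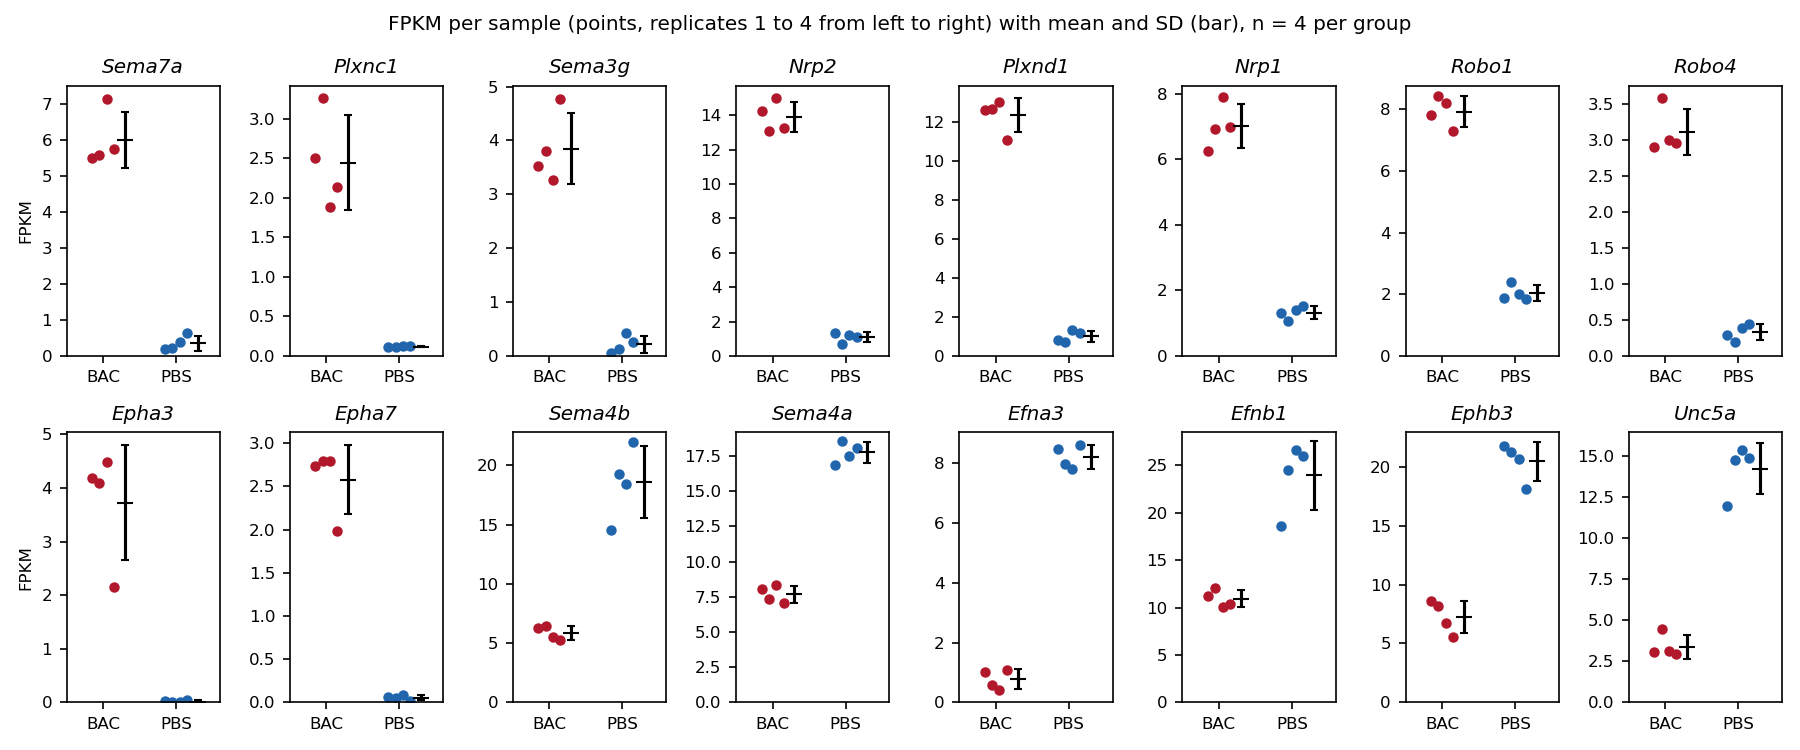
FPKM in each sample (points, replicates 1 to 4 from left to right) for 16 members, with the mean and SD of each group (n = 4), BAC left of PBS, on linear axes from 0. In every panel the groups are apart, from Sema7a at 5.51 FPKM or more in BAC corneas to Unc5a at no more than 4.48 FPKM there.

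The ephrins, ligands bound to the cell surface, gave more lower calls than higher ones. Of 7 tested, 1 was higher, 3 were lower and 3 were not called, where 45.1% of all genes were higher and 22.6% lower. The summed level was 73.3 FPKM in BAC corneas and 96.9 FPKM in PBS corneas. Efna1, Efna3 and Efna4, A-type ephrins anchored by a lipid, lie close together on the minus strand of chromosome 3, at chr3:89271733-89281142, chr3:89313899-89322965 and chr3:89333390-89338028. Efna3 had 1.02, 0.576, 0.420 and 1.08 FPKM in BAC corneas, against 8.46, 7.97, 7.79 and 8.61 FPKM in PBS corneas. Every BAC value lay far under every PBS value. It was 10.6 times lower, the largest fall among the tested members on the log2 scale (log2 change -2.39, SE 0.13, limma adjusted p = 3.39e-07).

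The other 2 genes of the cluster were at higher levels in both groups. Efna4 had 6.62, 6.24, 6.37 and 7.65 FPKM in BAC corneas, against 14.2, 11.9, 11.1 and 12.7 FPKM in PBS corneas. The groups did not overlap and Efna4 was 1.85 times lower (log2 change -0.80, SE 0.09, limma adjusted p = 4.03e-05). Efna1, the most abundant ephrin over all 8 samples and a ligand of Epha2, had 24.4, 26.1, 25.5 and 21.7 FPKM in BAC corneas, against 25.7, 27.4, 26.5 and 9.93 FPKM in PBS corneas. PBS 4 was far below the rest. Pigment markers were high in PBS 4 and also in BAC 4, where Efna1 was at 21.7 FPKM, and their part was not tested. The log2 change was 0.21 (95% interval -0.42 to 0.85, not called); without PBS 4 it was -0.12.

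**Figure D4:**
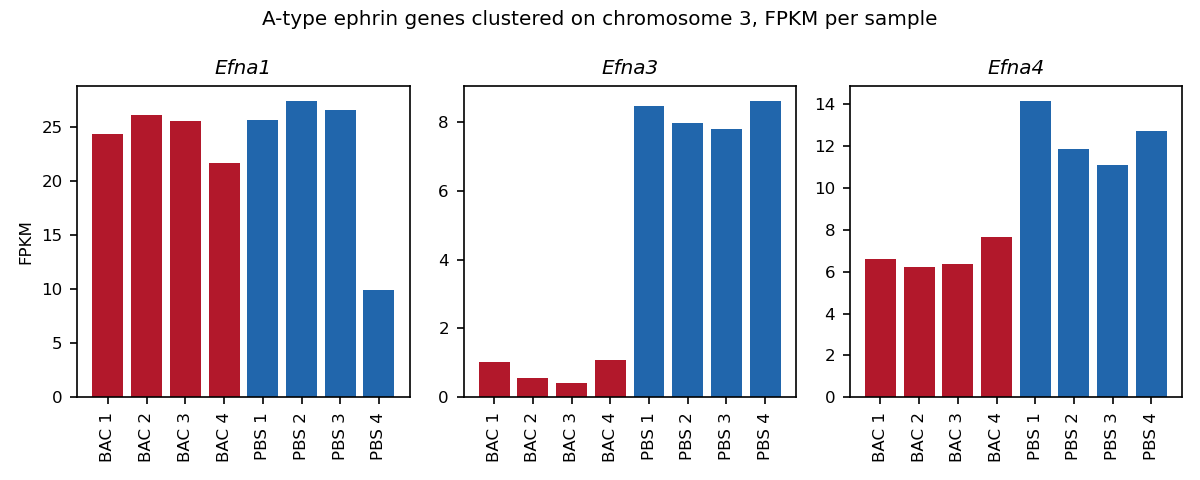
FPKM in each sample for 3 clustered ephrin genes of chromosome 3, BAC bars left of PBS bars, each panel with its own linear axis from 0. Efna3 falls to 1.08 FPKM or less in BAC corneas and Efna4 to 7.65 FPKM or less, while Efna1 differs mainly in PBS 4, at 9.93 FPKM.

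Efnb1 (chrX:99136130-99148991, plus strand), a transmembrane ephrin that sorts epithelial cells, had 11.2, 12.1, 10.1 and 10.3 FPKM in BAC corneas, against 18.6, 24.5, 26.6 and 26.0 FPKM in PBS corneas. It was 2.19 times lower without overlap (log2 change -1.05, SE 0.11, limma adjusted p = 3.02e-05). Efnb2, the ligand of Ephb4 and a mark of arterial endothelium, averaged 17.0 ± 1.75 FPKM in BAC corneas and 16.2 ± 1.56 FPKM in PBS corneas (SD, n = 4 each) and was not called (log2 change 0.06, 95% interval -0.15 to 0.27). Efna5 was also not called (log2 change -0.16, 95% interval -0.36 to 0.04), but was called lower after median-of-ratios scaling (limma adjusted p = 0.0058) and quantile normalization (limma adjusted p = 0.0146). Efna2 was 5.72 times higher with BAC, at low levels of 1.56 FPKM in BAC corneas and 0.273 FPKM in PBS corneas (log2 change 1.00).

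Among 10 Eph receptors, 4 were higher with BAC, 3 lower and 3 not called, where 45.1% of all genes were higher and 22.6% lower. Epha3 and Epha7, known best from neural development and near 0 in PBS corneas, changed most. Epha3 (chr16:63543538-63864158, minus strand) had 4.19, 4.09, 4.49 and 2.14 FPKM in BAC corneas; in PBS corneas it was listed at 0 in 2 samples and at 0.0173 and 0.0502 FPKM in the others (log2 change 2.18, SE 0.17, limma adjusted p = 2.78e-06). Epha7 (chr4:28813131-28967499, plus strand) had 2.74, 2.80, 2.79 and 1.98 FPKM in BAC corneas, against 0.0572, 0.0564, 0.0906 and 0.0166 FPKM in PBS corneas. In both genes BAC 4 was the lowest BAC sample and still far above every PBS sample. The mean of Epha7 was 46.7 times higher (log2 change 1.76, SE 0.10, limma adjusted p = 3.77e-07).

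B-type receptors were divided. Ephb2 (chr4:136647539-136835988, minus strand), a receptor of B ephrins, had 2.50, 2.68, 2.18 and 2.61 FPKM in BAC corneas, against 0.325, 0.497, 0.630 and 0.591 FPKM in PBS corneas. It was 4.88 times higher without overlap (log2 change 1.21, SE 0.09, limma adjusted p = 2.71e-06). Ephb4, the venous partner of Efnb2, averaged 13.9 ± 1.49 FPKM in BAC corneas and 7.49 ± 0.805 FPKM in PBS corneas (SD, n = 4 each), 1.86 times higher (log2 change 0.81). Ephb3 (chr16:21204755-21223305, plus strand), a receptor of Efnb1, went the other way, with 8.58, 8.14, 6.74 and 5.57 FPKM in BAC corneas, against 21.8, 21.2, 20.7 and 18.1 FPKM in PBS corneas. All BAC values were under all PBS values, and Ephb3 was 2.82 times lower (log2 change -1.39, SE 0.12, limma adjusted p = 7.29e-06). Ephb6, a receptor without kinase activity, was 2.02 times lower (log2 change -0.86). Ephb1 averaged 0.376 FPKM in BAC corneas and 0.736 FPKM in PBS corneas, so it was tested only because of its level in PBS corneas, and was called lower (log2 change -0.33, limma adjusted p = 0.0249). It was not called without BAC 2 (limma adjusted p = 0.0636) or BAC 3 (limma adjusted p = 0.0654), and fell below the filter without PBS 4.

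The most abundant Eph receptors of the cornea were not called. Epha1 (chr6:42358487-42373268, minus strand) had 38.1, 37.6, 35.9 and 28.1 FPKM in BAC corneas, against 36.6, 39.6, 39.8 and 40.4 FPKM in PBS corneas. The groups overlapped, with BAC 4 lowest (log2 change -0.17, 95% interval -0.39 to 0.05). Epha2, the receptor of Efna1 at epithelial junctions, had 32.6, 30.6, 25.5 and 29.4 FPKM in BAC corneas, against 35.2, 37.3, 36.4 and 23.3 FPKM in PBS corneas. PBS 4 alone lay under the BAC samples; without it the log2 change was -0.29 (limma adjusted p = 0.0167), against -0.14 with it (95% interval -0.47 to 0.19). Epha4 had a log2 change of -0.23 (95% interval -0.47 to 0.00) and was called lower after median-of-ratios scaling (limma adjusted p = 0.00563) and after quantile normalization (limma adjusted p = 0.0112), as was Epha1 (limma adjusted p = 0.00698 and 0.0438).

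**Figure D5:**
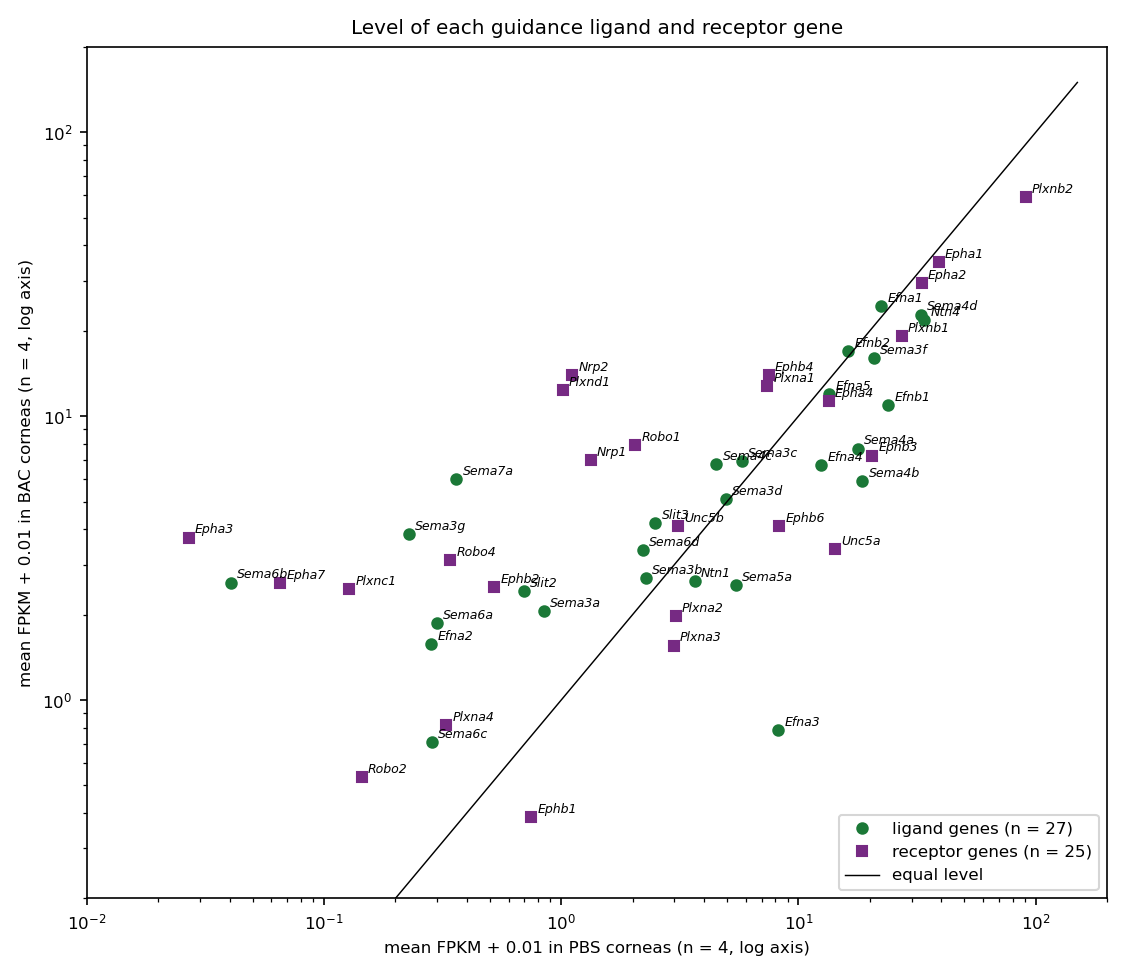
Mean FPKM of each member, BAC on one axis against PBS on the other, both logarithmic after adding 0.01. The most abundant receptors, Plxnb2 at 59.3 FPKM in BAC corneas and 91.0 FPKM in PBS corneas and Epha1 at 34.9 and 39.1 FPKM, lie near the line of equal levels, and the largest ratios belong to genes that were low in PBS corneas.

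Slits and Robos, repellent ligands and their receptors, gave 3 higher genes and 1 not called of 4 tested, where 45.1% of all genes were higher. Robo1 (chr16:72663149-73046095, plus strand), the main Slit receptor of axons, had 7.81, 8.42, 8.18 and 7.28 FPKM in BAC corneas, against 1.88, 2.40, 2.01 and 1.85 FPKM in PBS corneas. The spread inside each group was small beside the gap, and Robo1 was 3.89 times higher (log2 change 1.56, SE 0.08, limma adjusted p = 2.96e-07). Robo4 (chr9:37401897-37415115, plus strand), the endothelial Robo, had 2.90, 3.58, 3.0 and 2.95 FPKM in BAC corneas, against 0.294, 0.189, 0.394 and 0.443 FPKM in PBS corneas. It was 9.41 times higher without overlap (log2 change 1.63, SE 0.09, limma adjusted p = 4.54e-07), and moved with the endothelial markers, whose part in it was not tested.

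Slit2 (chr5:47983138-48307733, plus strand), a ligand of Robo1, had 1.93, 2.41, 2.99 and 2.28 FPKM in BAC corneas, against 1.49, 0.687, 0.346 and 0.221 FPKM in PBS corneas. The groups did not overlap, but PBS samples were widely spread, with PBS 1 highest. Slit2 was 3.50 times higher (log2 change 1.06, SE 0.21, limma adjusted p = 0.00161). Without PBS 1 the PBS mean was 0.418 FPKM and the log2 change 1.27. Slit3 was not called (log2 change 0.56, 95% interval -0.01 to 1.13), but was called higher without BAC 1 (limma adjusted p = 0.0263) or without PBS 3 (limma adjusted p = 0.0357). Robo2 was too low to test, with 0.524 FPKM in BAC corneas and 0.134 FPKM in PBS corneas, as was Sema6c, with 0.701 FPKM in BAC corneas and 0.274 FPKM in PBS corneas.

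Netrins and Unc5 receptors gave 1 higher, 2 lower and 1 not called gene of 4, where 45.1% of all genes were higher and 22.6% lower. Unc5a (chr13:54949411-55006018, plus strand), a repellent netrin receptor of neurons, had 3.04, 4.48, 3.12 and 2.93 FPKM in BAC corneas, against 11.9, 14.8, 15.3 and 14.8 FPKM in PBS corneas. No values overlapped, and Unc5a was 4.19 times lower (log2 change -1.80, SE 0.12, limma adjusted p = 1.44e-06). Its fall was the largest among the tested receptors. Ntn4 (chr10:93640681-93747207, plus strand), a laminin-binding netrin of basement membranes and the most abundant member of this group, had 22.0, 23.3, 18.8 and 23.2 FPKM in BAC corneas, against 34.2, 27.4, 34.6 and 39.1 FPKM in PBS corneas. It was 1.55 times lower (log2 change -0.60, SE 0.11, limma adjusted p = 0.000988).

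Unc5b (chr10:60762593-60831581, minus strand), the vascular Unc5 receptor, had 4.55, 3.98, 4.00 and 3.84 FPKM in BAC corneas, against 3.05, 3.28, 3.49 and 2.57 FPKM in PBS corneas. The groups were apart by little (log2 change 0.32, limma adjusted p = 0.0113). Its call was lost after median-of-ratios scaling (limma adjusted p = 0.202) and its change was -0.03 after quantile normalization, not called. Ntn1, the prototype netrin, had 1.74, 2.58, 1.89 and 4.25 FPKM in BAC corneas, against 2.92, 3.73, 4.13 and 3.82 FPKM in PBS corneas. BAC 4 exceeded every PBS sample. Pigment markers were high in BAC 4 and also in PBS 4, where Ntn1 was at 3.82 FPKM, and their part was not tested. Ntn1 was not called with all samples (log2 change -0.40, 95% interval -0.85 to 0.04) but was lower without BAC 4 (log2 change -0.60, limma adjusted p = 0.00357). Unc50 was not called (log2 change -0.07).

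Ligands and receptors were then set against each other. Of 24 tested receptors, 13 were higher with BAC, 8 lower and 3 not called, which is 87.5% called with a median log2 change of 0.38. For 26 tested ligands, 8 were higher, 9 lower and 9 not called, which is 65.4% called with a median of 0.13. Over all genes 67.6% were called, and the ligands lie close to that total share. By direction, in these unscaled values, they do not. Of the ligands, 30.8% were higher and 34.6% lower, where 45.1% of all genes were higher and 22.6% lower. Of the receptors, 54.2% were higher and 33.3% lower. Among the higher receptors, Plxna4, Plxnc1, Epha3, Epha7 and Robo4 were tested only because of their level in BAC corneas. So were the higher ligands Sema3g, Sema6a, Sema6b, Sema7a and Efna2. The lower receptor Ephb1 was tested only because of its level in PBS corneas. With the filter at 2 FPKM, 41.2% of receptors were higher and 41.2% lower, and 14.3% of ligands were higher and 42.9% lower. Of all genes, 43.2% were then higher and 24.4% lower. The difference of the medians, ligands minus receptors, was -0.26, and for the single BAC samples against the PBS mean it was -0.35, -0.23, -0.32 and -0.39. No test of this difference was made, since genes are not replicates, and among members averaging at least 2 FPKM it was 0.0069. It was -0.48 without PBS 4 and -0.064 after quantile normalization. Summed ligand levels were 201 ± 8.80 FPKM in BAC corneas and 255 ± 8.31 FPKM in PBS corneas (SD, n = 4 each). Summed receptor levels were 260 ± 21.1 FPKM in BAC corneas and 278 ± 17.1 FPKM in PBS corneas.

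Known ligands and receptors can be read side by side. Sema7a and its receptor Plxnc1 were both higher with BAC, as were Sema3a and its co-receptor Nrp1, and Slit2 and Robo1. Sema4d and its receptor Plxnb1 were both lower, as were Efnb1 and its receptor Ephb3, while Efnb1 and its other receptor Ephb2 went in opposite directions. Sema4c was higher and its receptor Plxnb2 lower, and Sema3f was lower and its receptor Nrp2 higher. Sema6a and Sema6b were higher, while of the A plexins Plxna1 and Plxna4 were higher and Plxna2 and Plxna3 lower. For Efnb2 and Ephb4 only the receptor was called. For Ntn1 and its receptor Unc5a only the receptor was called with all samples, and for Efna1 and Epha2 neither was. These statements set calls side by side and do not show that the pairs act on each other in these corneas.

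Transcript values were used to see which isoforms carried the changes. Of 94 transcripts whose gene names match the rule, those of Unc50 included, 83 were tested. Of these, 20 were higher, 17 lower and 46 not called. Of the 23349 transcripts tested in all, 34.6% were called, 23% higher and 11.6% lower. Nrp2 rose in more than 1 isoform. Nrp2-202, with a coding length of 2778 bases, averaged 11.7 FPKM in BAC corneas and 1.20 FPKM in PBS corneas (log2 change 2.55). Nrp2-205, which ends at position 62799314 of chromosome 1, short of the gene's end at 62818695, and has a coding length of 2703 bases, averaged 8.82 FPKM in BAC corneas and 0.458 FPKM in PBS corneas (log2 change 2.78). Sema7a-201 (log2 change 2.38) and Efna3-201 (log2 change -2.40) changed like their genes. For Ephb4 the assignment moved between libraries: Ephb4-203 was listed at 0 in PBS 3, where Ephb4-201 stood at 7.78 FPKM. No transcript of Ephb4 was called. Sema3f, Ephb1, Ephb2 and Unc5b were also called as genes but in no tested transcript. Sema3f-201 averaged 17.2 FPKM in BAC corneas and 18.7 FPKM in PBS corneas (log2 change -0.12, limma adjusted p = 0.296).

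Guidance genes outside the 9 families were read from a list of 31, of which 21 were tested: 10 were higher, 7 lower and 4 not called, with a median log2 change of 0.24. As shares, 47.6% were higher and 33.3% lower, where 45.1% of all genes were higher and 22.6% lower with a median of 0.19. Flrt2, a ligand of Unc5 receptors, changed most, with 20.1 ± 0.449 FPKM in BAC corneas and 1.20 ± 0.455 FPKM in PBS corneas (SD, n = 4 each; log2 change 3.28, limma adjusted p = 6.09e-08). Its relative Flrt3 was also higher (log2 change 1.34), as were Ptprz1, a receptor phosphatase of glia (2.02), and Cd72, a B cell receptor of Sema4d (1.28). Ptprz1 and Cd72 averaged 0.182 and 0.234 FPKM in PBS corneas, and the higher genes Plxdc1 and Ntng2 averaged 0.235 and 0.167 FPKM there. All of these were tested only because of their level in BAC corneas. Of the 7 lower genes, Chl1 fell most, with 4.42 FPKM in BAC corneas and 16.1 FPKM in PBS corneas (log2 change -1.66, limma adjusted p = 1.28e-05). Draxin, a netrin antagonist, was listed at 0 in all PBS corneas and averaged 0.781 FPKM in BAC corneas, too low to test.

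A list of 40 intracellular effectors had 37 tested genes, of which 18 were higher, 14 lower and 5 not called, with a median log2 change of 0.18. As shares, 48.6% were higher and 37.8% lower, beside the same 45.1% and 22.6% of all genes. Fes, a tyrosine kinase of myeloid cells and plexin signalling, averaged 7.55 ± 0.442 FPKM in BAC corneas and 0.506 ± 0.0845 FPKM in PBS corneas (SD, n = 4 each; log2 change 2.50, limma adjusted p = 1.76e-08). Fyn, a kinase downstream of several guidance receptors, averaged 6.74 ± 0.297 FPKM in BAC corneas and 0.544 ± 0.161 FPKM in PBS corneas (SD, n = 4 each; log2 change 2.33). Ngef, an effector of Epha4, was the opposite case, with 0.615 ± 0.1502 FPKM in BAC corneas and 12.1 ± 1.97 FPKM in PBS corneas (SD, n = 4 each; log2 change -3.01, limma adjusted p = 7.72e-08). Rras, a small GTPase that plexins inactivate, was higher with BAC (log2 change 1.26). Sh2d3c and Rnd1, also called higher, averaged 0.192 and 0.0570 FPKM in PBS corneas, so they were tested only because of their level in BAC corneas.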

How the data were processed

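RNA from 4 BAC and 4 PBS corneal samples was sequenced from stranded libraries, per the labels' protocols. The submitters' processing notes name the build GRCm38, StringTie 1.3.3 and HISAT2 2.1.0, without role or order. The authors deposited FPKM per gene and per transcript, so depth is unknown; FPKM summed to 268629 to 283538 per sample, and 0 columns were left without a sample.

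From these values log2(FPKM + 1) was tested with limma 3.58.1 in R 4.3.3, with a trended prior, for features averaging at least 0.5 FPKM, and Benjamini-Hochberg adjustment over all features. In each family the genes with the largest changes among called genes averaging at least 2 FPKM in a group (up to 4), and the most abundant gene, are given by sample; others are named to account for every member. Members and lists were chosen with earlier results of these data known. Promoter windows came from RefSeq on GRCm38.p6 and coding lengths from GENCODE M21. Replicate numbers were not used to pair samples. Alternatives were other pseudocounts, filters, scalings and priors, a replicate block and leaving out libraries. The authors' comparison tables were not used here.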

Additional observations from a re-analysis of the deposited data

Results flagged for a closer look

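In 118 groups of 4 samples, 11 values lay far from the other 3 samples of their group, measured as the gap to the nearest sample over the group's range; chance alone gives some such values in this many groups. Efna1 stood at 9.93 FPKM in PBS 4, with 25.7 to 27.4 FPKM in the other PBS samples, and Epha2 at 23.3 FPKM in PBS 4, with 35.2 to 37.3 FPKM in the others. In BAC 4, Epha7 was at 1.98 FPKM, with 2.74 to 2.80 FPKM in the other BAC samples, and Rras at 24.5 FPKM, with 28.1 to 28.8 FPKM. BAC 2 had high values of Robo4, at 3.58 FPKM beside 2.90 to 3.0 FPKM, and of Unc5a, at 4.48 FPKM beside 2.93 to 3.12 FPKM. In BAC 3, Sema7a was at 7.14 FPKM beside 5.51 to 5.75 FPKM, and Sema3a at 2.25 FPKM beside 1.96 to 1.99 FPKM. Among PBS samples, Unc5a was at 11.9 FPKM in PBS 1 beside 14.8 to 15.3 FPKM, Sema6a at 0.145 FPKM in PBS 2 beside 0.319 to 0.352 FPKM, and Sema6b at 0.122 FPKM in PBS 3 where the others were listed at 0.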

How the results depend on the processing

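With genes required to average 2 FPKM, 10 of 39 members were higher and 16 lower, 3 of 21 ligands higher and 9 lower, 7 of 17 receptors higher and 7 lower, and 5 other guidance genes higher, where 43.2% of all genes were higher and 24.4% lower. After quantile normalization 4990 genes were lower. The median change of ligands minus receptors was -0.45 with a pseudocount of 0.1, 0.0069 with the filter at 2 FPKM, -0.064 after quantile normalization and -0.33 after median-of-ratios scaling. Leaving out each library in turn gave -0.48 to -0.24, and, as settings chosen after seeing the data, -0.37 without BAC 4 and PBS 4 and -0.37 without BAC 4, PBS 1 and PBS 4. Without BAC 4 and PBS 4, 23 members were higher (45.1%) and 18 lower (35.3%), where 43.0% of all genes were higher and 21.0% lower. Direction turned for uncalled genes and, after quantile normalization, for Plxna4 and Unc5b. Those 2 were called higher without that normalization (limma adjusted p = 0.00161 and 0.0113). Efna1 was -0.12 without PBS 4, and -0.066 and -0.089 in those 2 added settings, with a range of -0.12 to 0.34 as each library was left out. Efnb2 was -0.060 after quantile normalization, -0.15 after median-of-ratios scaling, and -0.00053 to 0.12 as libraries were left out. Sema3d was -0.28 and -0.17 in the same order and ranged from -0.093 to 0.14 as libraries were left out. After quantile normalization Plxna4 was -0.14, Sema3b -0.24, Sema6d -0.0068 and Unc5b -0.032. The labels tie no same-numbered samples together, and deviations of same-numbered samples correlated at 0.0527, 0.109, 0.121 and 0.114, not over 0.1 in every pair, so no pairing was assumed; BAC 2, BAC 3 and BAC 4 each correlated best with their own number and BAC 1 with PBS 2. With the replicate number as a block, 22 members were higher (43.1%) and 18 lower (35.3%), Epha4 and Sema3c gaining calls. Of all genes, 43.9% were higher and 21.8% lower with that block. The cause of these shifts was not tested. Depth is unknown, and with 4 samples per group small changes of scattered genes could not be told from no change.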
